A study of Mus musculus with 20 samples.

Results

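The sites examined here are cytosines of mRNA that could be compared between the liver of wild-type (WT) mice and 4 other WT tissues, together with cytosines that were covered in liver alone. Shared sites had at least 20 reads in all 10 WT libraries (2 each of liver, small intestine, spleen, kidney and heart), and 3098 sites in 2023 genes met this. Liver-only sites had at least 20 reads in both liver libraries and fewer than 20 in each of the 8 other libraries, which left 119 sites. Together they were 3217 of the 32378 sites (9.94%) in the deposited table. The remaining 4032 of the 7249 sites with 20 reads in both liver libraries had enough reads in some other libraries only, and they enter nothing below except where they are named.

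The series compared WT mice with mice lacking Nsun6 in these 5 tissues by bisulfite sequencing of mRNA, in 20 libraries. All 10 WT libraries came from females of 8 weeks, per the study's methods, which name C57BL/6J for the eggs of the KO line but give no strain for the WT mice, while the KO liver libraries read at named sites below come from mice with a CRISPR/Cas9 deletion in Nsun6. Tissue was ground whole before RNA extraction with TRIzol, so each library mixes the cell types of its organ. Neither the labels nor the methods say whether the 2 libraries of a tissue are separate animals, or whether organs share an animal. The p-values therefore rest on the spread among these libraries only, which edgeR's site test pooled over sites, as given below.

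5-Methylcytosine (m5C) on mRNA is placed mainly by NSUN2, and by NSUN6 at a smaller set of sites. In human cells the NSUN2 sites often have G-rich sequence after the cytosine and the NSUN6 sites the sequence CTCCA. Bisulfite turns an unmethylated cytosine into a base that is read as T, and the methylation level of a site is the fraction of its reads that still carry C. Liver mRNA is dominated by hepatocytes, which secrete most plasma proteins and carry out bile acid synthesis, urea production and drug oxidation. Positions are on mouse build mm10, counted from 1.

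The label was checked first. The 6 measured hepatocyte markers of 12 (Alb, Apob, Serpina1c, Serpina3k, Fgb and Trf) held 34.4% of the reads over listed sites in liver replicate 1 and 15.9% in replicate 2, against 0.00267% to 0.589% in the 8 other libraries. Alb alone gave 30.0% and 12.5%, and Apob, which intestine also makes, was at 0.116% and 0.159% in liver and at 0.201% and 0.569% in small intestine. Reads over listed sites summed to 1772707 and 2272814 in the liver libraries and to between 1247930 and 3252220 in the others, and the median coverage of a shared site was 55 and 89 reads in liver and 82 to 156 elsewhere. The 6 measured lymphoid and myeloid spleen markers (of 8 listed) held 0.245% of reads in liver replicate 1 and 0.0107% in replicate 2. In replicate 2, 3 of them, Cd79b and Ighm included, had no listed reads. Coverage under 10 reads at a site is not listed and was counted as 0. The 5 measured macrophage markers differed likewise (0.119% and 0.00761%), and so did the 4 erythroid markers (0.542% and 0.00330%). Other tissues held unlike libraries too. The 4 erythroid markers were at 4.39% and 0.00365% in spleen. The 2 measured pancreas acinar markers were at 1.41% and 0% (no listed reads) in small intestine. The part of these differences in the results was not tested. The 2 liver libraries differ in their blood cell transcripts, and results without each are given for some of the calls that changed. The sources used here mention no molecular identifiers, and reads may be PCR copies. Confidence intervals, and upper limits where no read was unconverted, therefore cover counting error only.

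The sequences below carry the results that follow. Each is 21 bases of the transcript strand, 5′ to 3′, from the mm10 reference genome, with the measured cytosine and the 4 bases after it in capitals. The first 7 are liver-only sites with unconverted reads in both liver libraries. Ccdc107, Sec61a1 and Oaz1 were among the most methylated shared sites of liver, Rps9, Rps21 and Rpl23 are ribosomal protein sites that were lower in liver than in heart, Gsn had the smallest p among sites higher in liver, and H2-Aa was the one shared CTCCA site that met the criteria for liver given below.
Itih2 (chr2:10102140-10102160, minus strand, coding exon 16): caacccatctCCGACaccaat
Vnn3 (chr10:23864617-23864637, plus strand, coding exon 4): atgcatatgaCAGGTaactgg
Serpina3k (chr12:104345370-104345390, plus strand, coding exon 5): cacaagtgctCAGAGtatcct
Cyp3a41a (chr5:145720044-145720064, minus strand, 5′ UTR, exon 1): gacagacaagCAGGGatgaac
Ces1c (chr8:93118310-93118330, minus strand, coding exon 7): ttggagatttCAGGGaaactg
Pzp (chr6:128496615-128496635, minus strand, coding exon 18): agagacagtgCGGAAgtactt
Plg (chr17:12382175-12382195, plus strand, coding exon 2): actgtttggcCAAATgtgaag
Ccdc107 (chr4:43495346-43495366, plus strand, coding exon 4): acagctggtgCAGCTgacaca
Sec61a1 (chr6:88503779-88503799, minus strand, 3′ UTR, exon 12): tggggagtgtCAGGCctggag
Oaz1 (chr10:80829094-80829114, plus strand, 3′ UTR, exon 6): ggtgcttcttCGAGCtgaatg
Rps9 (chr7:3706693-3706713, plus strand, coding exon 5): cctggactctCAGAAgcacat
Rps21 (chr2:180257793-180257813, plus strand, coding exon 3): caagcaaccgCATCAttgctg
Rpl23 (chr11:97781812-97781832, minus strand, coding exon 2): ctgtgatcaaCTGTGcagaca
Gsn (chr2:35303330-35303350, plus strand, coding exon 14): ggcagtgagcCAGGTgcgggg
H2-Aa (chr17:34283189-34283209, minus strand, coding exon 4): caggtggcacCTCCAgacacc

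The first question was which sites are methylated in liver as well as elsewhere. The study's methods asked for 20 reads and 2 reads carrying C in 2 replicates and a level of 0.05. They were applied here to each library of a tissue, with C read as unconverted and the level taken as the mean of both libraries. Under these criteria 57 of the 3098 shared sites qualified in liver, 43 in small intestine, 37 in spleen, 54 in kidney and 179 in heart. Of the 57, 43 also met them in heart, 17 met them in all 5 tissues and 10 met them in liver and in no other tissue. The highest of the 17 in liver was in Ccdc107, a coiled-coil protein, at 0.580 and 0.503 in the liver libraries (808 and 777 reads). In the 8 other libraries the Ccdc107 site ran from 0.0234 through a median of 0.251 to 0.554, and liver lay above both small intestine, both spleen and both kidney libraries, while liver replicate 2 lay below heart replicate 1.

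Sec61a1 encodes the pore of the channel that passes secretory proteins into the endoplasmic reticulum. Its site stood at 0.412 and 0.452 in liver (694 and 186 reads), and at 0.104, 0.175 and 0.315 as the lowest, median and highest of the others. Both liver libraries lay above all 8 others. Oaz1, the antizyme that targets ornithine decarboxylase for breakdown, was at 0.246 and 0.348 in liver (1205 and 69 reads), with 0.0376, 0.184 and 0.315 elsewhere, and the groups overlapped because both kidney libraries were near 0.3. Rela, an NF-kappaB subunit, reached 0.247 and 0.594 (89 and 64 reads), a spread between the liver libraries wider than the range of the 8 others (0.181 to 0.386). Snrnp70, a splicing protein, spread likewise (0.158 and 0.456, 57 reads in each).

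At other sites that met the criteria in all 5 tissues liver lay within the range of the rest. Rpl34, a large-subunit ribosomal protein, was at 0.140 and 0.122 in liver, within the 0.119 to 0.271 of the other libraries. Tmem50a, a small membrane protein, was at 0.0885 and 0.143 against 0.0568 to 0.216. The Tmem50a site and 2 sites of Tpm3, a tropomyosin, lie within runs of A in which single cytosines recur.

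**Figure D1:**
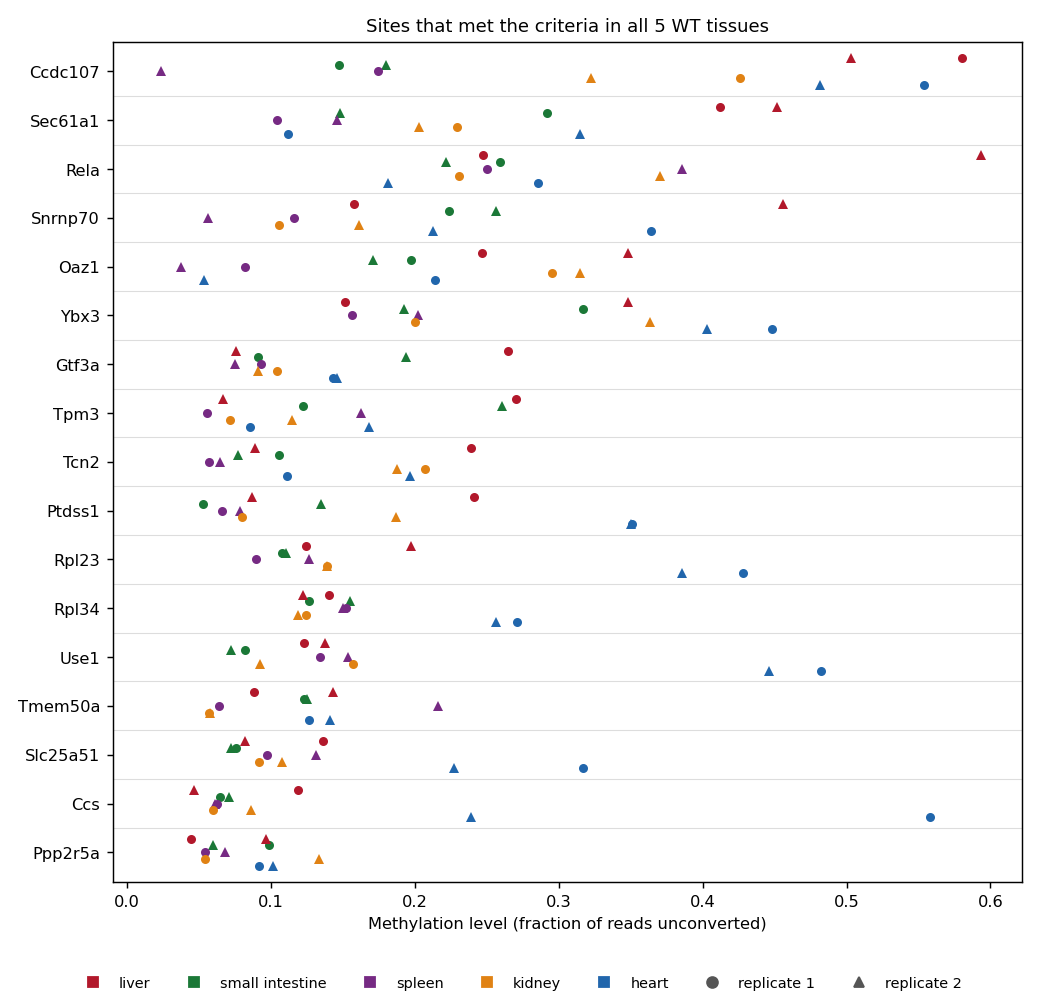
Methylation level (x axis, fraction of reads unconverted) of the 17 sites that met the criteria in all 5 WT tissues, ordered by liver mean. Each point is 1 library, with colour for tissue and shape for replicate. The liver mean is the highest at Ccdc107 and Sec61a1, and both heart libraries lie right of all others at Rpl23 and Rpl34.

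Then liver was tested against the mean of the 4 other tissues. Of the shared sites, 1034 in 865 genes had at least 10 unconverted reads over the 10 libraries and were tested, and 1005 of the 2064 left out had none. With edgeR's quasi-likelihood test, 1 site was lower in liver (0.0967% of those tested) and 0 were higher (0%), while 13 were higher and 1 lower at an unadjusted p under 0.05. This fit took the variance of each site wholly from the trend over all tested sites. A small p at a site therefore does not show that its own libraries were alike. The other tools called 2 lower and 3 higher (limma) and 0 in either direction (DESeq2). The site called lower is in coding exon 2 of Rps14, a protein of the small ribosomal subunit (chromosome 18, position 60776976), and stood at 0.0121 and 0.0163 in liver (6554 and 6068 reads). In the other libraries it was 0.0132 at the lowest, 0.0205 at the median and 0.124 at the highest, the last in heart, so the groups overlapped. The mean was 0.0142 ± 0.00301 (SD, n = 2) against 0.0411 ± 0.0423 (n = 8), a log2 odds ratio of -1.07 with an adjusted p of 0.000735 in edgeR. This call was lost without liver replicate 1, without small intestine replicate 1, and in a fit with the 8 other libraries as 1 group, and limma and DESeq2 did not make it.

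The next 4 sites in order of p on the lower side did not pass. Rps9 and Rps21, also of the small subunit, stood at 0.0340 and 0.0633 and at 0.0194 and 0.0293 in liver, against 0.0321 to 0.198 and 0.0180 to 0.117 in the others. The second Rps14 site (position 60777849) stood at 0.0187 and 0.0265 against 0.0167 to 0.110. A site of Cox7c, a cytochrome c oxidase subunit, stood at 0.0394 and 0.0116 against 0.0238 to 0.254. In each of the 4 the 8 other libraries overlapped liver and their highest value was a heart library. The neighbouring cytosine of Cox7c, 1 base away, was at 0.110 and 0.0813 in liver, above every small intestine, spleen and kidney library.

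On the higher side the smallest p was that of Gsn, which encodes gelsolin, an actin-severing protein also found in plasma. Its liver levels were 0.0533 and 0.300 (75 and 40 reads), with 0, 0.0136 and 0.0250 as the lowest, median and highest of the others (log2 odds ratio 4.66, adjusted p = 0.309). Both liver libraries lay above all 8, replicate 1 closer to the rest than to replicate 2. The site passed without liver replicate 1 (adjusted p = 0.00684 in edgeR) and without spleen replicate 1 (0.0445). At the next 4 the unconverted reads of liver lay in a single liver library, or nearly so. Atp2a2, the calcium pump of the sarcoplasmic reticulum, was at 0.103 in liver replicate 1 (3 unconverted reads) and at 0 in replicate 2. The heart libraries held 8 and 3 unconverted reads at this site. Vim (vimentin) and Hmgb2, a chromatin protein, were at 0 in replicate 1 and at 0.207 and 0.113 in replicate 2. Atp5c1, the gamma subunit of ATP synthase, was at 0.0110 and 0.000329 in liver (4 and 1 unconverted reads). Kidney replicate 2 held 3 unconverted reads at the Atp5c1 site and heart replicate 2 held 5.

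Sites with nearly all unconverted reads in 1 library, such as those of Vim and Hmgb2, were common. The way the table was made bears on them. The authors listed a cytosine once it had passed in at least 1 library of the series, so that a high value in some library was a condition of being listed. Of the 1034 tested sites, 610 (59.0%) had at least 90% of their unconverted reads in 1 library. That library was liver replicate 2 at 224 of them, heart replicate 1 at 176, spleen replicate 2 at 150, liver replicate 1 at 31 and heart replicate 2 at 29. At the 224 sites of liver replicate 2 the median level was 0.137 at a median of 92 reads, and the median coverage in liver replicate 1 was 52 reads. Only 1 of the 610 met the criteria in any tissue. The mean level over all 3098 shared sites, 0.0193 and 0.0259 in liver against 0.00308 to 0.0344 elsewhere, includes these sites. Over the 208 sites that met the criteria somewhere it was 0.0578 and 0.0564 in liver. There it was 0.0291 to 0.0410 in small intestine, spleen and kidney and 0.156 and 0.116 in heart, where 179 of the 208 met the criteria.

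**Figure D2:**
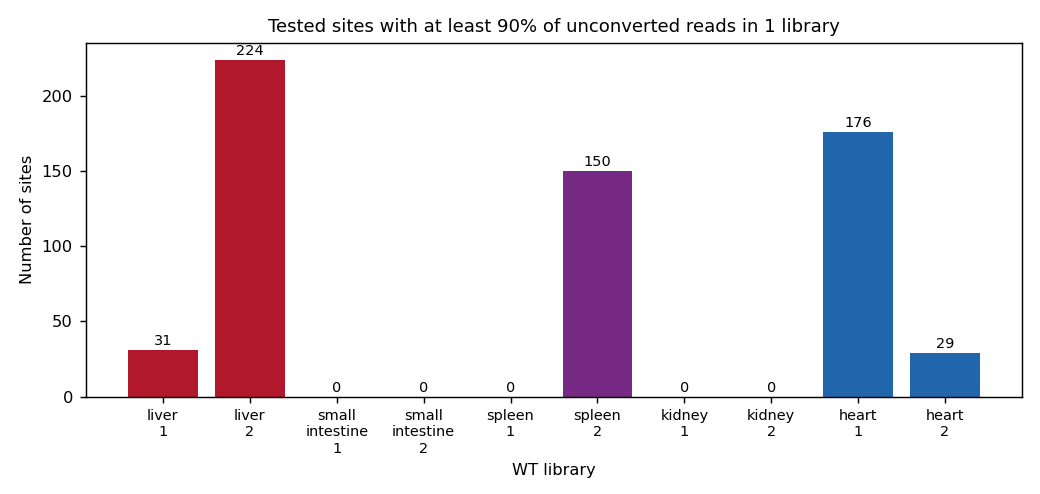
Number of tested shared sites (y axis) at which 1 library (x axis, WT libraries by tissue and replicate) held at least 90% of the unconverted reads. Liver replicate 2 held 224 of the 610 and liver replicate 1 held 31, while small intestine, spleen replicate 1 and kidney held 0 each.

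Compared tissue by tissue, liver differed most often from heart. In edgeR, 12 sites were lower in liver than in heart (1.16% of 1034) and 0 were higher (5 at an unadjusted p under 0.05). Against small intestine 0 were lower and 1 higher (0.0967%), against spleen 2 lower (0.193%) and 1 higher (0.0967%), and against kidney 0 in either direction (0 lower and 5 higher at an unadjusted p under 0.05). DESeq2 called 0 in each of these comparisons, and limma called 3 lower and 2 higher against heart, of which 1 was among the 12. The differences between these counts were not tested.

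Of the 12 sites, 6 lie in 5 ribosomal protein genes. The first Rps14 site stood at 0.124 and 0.0919 in heart and the second at 0.110 and 0.102, against liver values under 0.03 (log2 odds ratios -3.07 and -2.38, adjusted p of 1.36e-25 and 1.04e-13). Rps21 was at 0.0194 and 0.0293 in liver and at 0.117 and 0.0966 in heart (adjusted p = 3.22e-11). Rps9 was at 0.0340 and 0.0633 in liver and at 0.198 and 0.195 in heart (adjusted p = 8.06e-07). In these sites every liver library lay below both heart libraries, and small intestine, spleen and kidney lay beside liver.

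Rpl23, of the large subunit, had the highest levels of the 12. It stood at 0.125 and 0.198 in liver (3831 and 4951 reads) and at 0.428 and 0.386 in heart, a mean of 0.161 ± 0.0516 (SD, n = 2) against 0.407 ± 0.0299 (n = 2), with a log2 odds ratio of -1.87 and an adjusted p of 0.000304 in edgeR. Liver and heart did not overlap. Liver replicate 1 lay among the other 6 libraries (0.0897 to 0.139) and replicate 2 above them. Rplp0, of the ribosomal stalk, was at 0.0297 and 0.0501 in liver and at 0.213 and 0.147 in heart (adjusted p = 0.0351). Of the 79 listed ribosomal proteins 10 had shared sites, and 9 of their sites were tested. Of the 9, 6 were lower in liver than in heart (over all tested sites 1.16%). The median log2 odds ratio was -2.32 over the 9 against -0.44 over all 1034. Such a median was not particular to this list. It was -3.31 over 10 translation factor sites, 0 of them called, -2.64 over 5 lipid metabolism sites and -1.25 over 14 secretory pathway sites. In a fit over the 208 sites that met the criteria somewhere, 24.5% were lower in liver than in heart. Rps9 had 4241 and 6287 liver reads, beside medians of 55 and 89 over shared sites, and the part of depth was not tested.

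Atp5b and Cox7a2l belong to the respiratory chain and ATP synthase. Atp5b, the catalytic beta subunit of ATP synthase, was at 0.0220 and 0.0138 in liver and at 0.0965 and 0.0818 in heart (adjusted p = 0.00145). Atp5b was also the one site called against small intestine, where it was at 0.00480 and 0.00239 (log2 odds ratio 2.37, adjusted p = 0.0409 in edgeR), so that liver lay between these tissues. The call against small intestine was lost without either small intestine library, either kidney library, liver replicate 1 or heart replicate 2. Cox7a2l, which helps to assemble respiratory supercomplexes, was at 0.00990 and 0.0178 in liver and at 0.0979 and 0.0943 in heart (adjusted p = 0.0351). Of 15 tested sites of this list 3 were called (beside the same 1.16%), with a median log2 odds ratio against heart of -2.46 over the 15. Idh3b, a subunit of the mitochondrial isocitrate dehydrogenase, was also lower than in heart (0.0153 and 0.00893 against 0.109 and 0.0827, adjusted p = 0.000545).

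The last 2 of the 12 rested on 1 heart library. Ahcy, the enzyme that clears S-adenosylhomocysteine, the by-product of methylation, had 0 of 20007 liver reads unconverted (upper limit 0.000150) and stood at 0 in heart replicate 1 and 0.101 in replicate 2. Cd74, the invariant chain of MHC class II, had 0 of 1433 liver reads unconverted (up to 0.00209) and stood at 0.124 and 0 in heart. Of these Cd74 reads 1370 were in liver replicate 1 and 63 in replicate 2, so the limit rests mostly on replicate 1. Likewise the 2 sites called lower than spleen, in Idh2 and Asl, were at 0 in both liver libraries and in spleen replicate 1, and at 0.149 and 0.111 in spleen replicate 2. When each of the 10 libraries was left out in turn, both Rps14 sites, Rps21, Rps9 and Rpl23 were called against heart every time, Atp5b 9 times, Idh3b 8 times, and Cox7a2l and Rplp0 3 times. Without liver replicate 1, Cd74, Cox7a2l and Rplp0 were not called (log2 odds ratios -3.62, -2.55 and -2.03). Without liver replicate 2, Ahcy and Atp5b were among those not called (-10.6 and -2.11). Without heart replicate 1 or replicate 2, 7 of the 12 remained. Over the 1034 sites limma called only Ahcy of the 12, with a log2 odds ratio of -3.07 and an adjusted p of 0.193 for the first Rps14 site. Fitted on the 208 sites that met the criteria in at least 1 tissue, most of which entered through heart, limma called 8 of the 10 that were in that set.

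**Figure D3:**
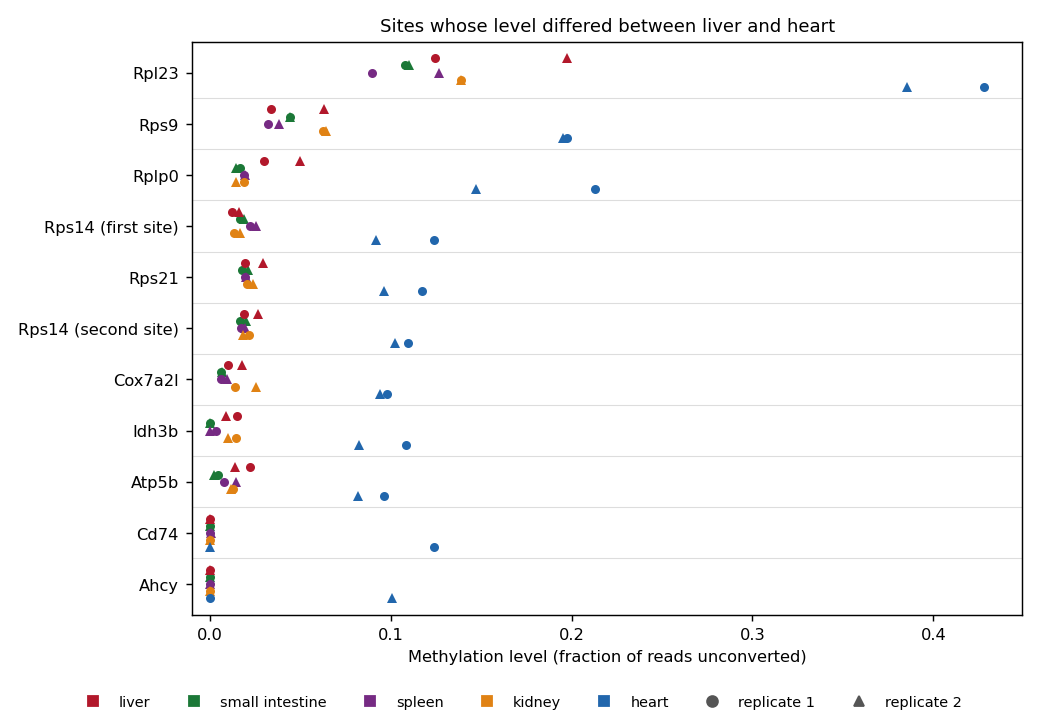
Methylation level (x axis, fraction of reads unconverted) of 11 of the 12 sites whose level differed between liver and heart, ordered by heart mean. Each point is 1 library. At all but Cd74 and Ahcy both heart libraries lie above all liver, small intestine, spleen and kidney libraries, and at those only 1 heart library lies above 0.

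A site that met the criteria only through heart had to be high in heart, so liver was also set beside each tissue at sites that met the criteria in at least 1 of the 3 tissues outside the pair, a choice made after the data were seen. Against heart this left 76 sites, of which liver lay below both heart libraries at 36 (47.4%) and above both at 10 (13.2%). Against small intestine liver lay above both at 39 of 192 sites (20.3%) and below both at 17 (8.85%). Against spleen it lay above at 31 of 197 (15.7%) and below at 9 (4.57%). Against kidney it lay above at 24 and below at 25 of 192 (12.5% and 13%), an even split. The median of the liver means over these sites was 0.0783 beside 0.160 in heart, and about 0.023 in the other 3 sets, beside 0.0112 in small intestine, 0.0116 in spleen and 0.0202 in kidney. Over all 1034 tested sites liver lay below both heart libraries at 168 (16.2%) and above both at 21 (2.03%). The same shares were 5.32% above and 3.58% below for small intestine, 4.55% and 1.74% for spleen, and 3.58% and 4.93% for kidney. The 10 sites above heart were in Oaz1, Rangap1 (the GTPase activator of Ran), Sec61a1, Cyb5b, Tpm3, Ppp1r14b (a protein phosphatase inhibitor, 2 neighbouring cytosines) and Ppp6r1 (a phosphatase regulatory subunit, 3 neighbouring cytosines).

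Sites at which both liver libraries lay above all 8 others numbered 13 of the 1034 tested (1.26%), and sites below all 8 numbered 3 (0.29%). Of the 13, 9 met the criteria in at least 1 tissue: among them those of Gsn, Ppif, Hsbp1, Cnih1, Cdipt, Cyb5b, Sec61a1 and 1 site of Tpm3. Cdipt, which makes phosphatidylinositol, was even between the liver libraries (0.128 and 0.118, 47 and 68 reads) with 0 to 0.0811 elsewhere. Cyb5b, a cytochrome b5 of the mitochondrial outer membrane, was at 0.103 and 0.168 against 0.0204 to 0.101, so that it barely cleared heart. At the 3′ UTR sites of Ppif and Hsbp1 all 8 other libraries had 0 unconverted reads. Ppif, the mitochondrial cyclophilin, was at 0.185 and 0.0176, and Hsbp1, a heat shock factor binding protein, at 0.150 and 0.0272. In both the liver libraries lay further apart than the lower of them lay from 0.

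When the fit was confined to the 208 shared sites that met the criteria in at least 1 WT tissue, 5 sites were higher in liver than the mean of the others (2.4%), among them those of Gsn, Hsbp1, Ensa and Ppif, with adjusted p between 1.46e-05 and 0.0253 in edgeR, and the Rps14 site remained lower (0.481%). Of the same 208 sites liver was higher than small intestine at 4 (1.92%), than spleen at 6 (2.88%) and than heart at 3 (1.44%), and lower than heart at 51 (24.5%). Because 179 of the 208 met the criteria in heart, most entered through a high heart level, and the 51 are a description. Ensa, an inhibitor of protein phosphatase PP2A, stood at 0.192 and 0.0484 in liver and at 0 to 0.0928 elsewhere. Of the 5, 4 met the criteria in liver alone, so that the choice of sites itself required a high liver value, and the call for Gsn was lost without liver replicate 2 (adjusted p = 0.152 in edgeR). The 3 sites below all 8 others were at 0 in both liver libraries. They lay in Polr1d, a subunit of RNA polymerases I and III (0.00168 to 0.0818 elsewhere), Psmd7, a proteasome lid subunit (0.00649 to 0.129), and Cotl1, an actin-binding protein (0.0249 to 0.250, on 68 and 20 liver reads).

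Both liver libraries lay above all 6 libraries of small intestine, spleen and kidney at 27 of the 1034 tested sites (2.61%), some of which lay below heart. Tle5, a transcriptional corepressor, was at 0.130 and 0.102 in liver, at 0.0205 to 0.0851 in the 6 libraries of those tissues, and at 0.503 and 0.462 in heart. Uqcc2, an assembly factor of complex III, was at 0.0549 and 0.0861 in liver and at 0.376 and 0.276 in heart, and Lonp1, the protease of the mitochondrial matrix, at 0.106 and 0.0750 in liver and 0.216 and 0.0858 in heart. Liver had the second highest mean, behind heart, at 70 of the 208 sites that met the criteria somewhere, and the highest at 26, whereas heart was highest at 159. Second place was not particular to liver: whatever tissue came first, liver was second at 79 sites and kidney at 75. Because the criteria chose these sites, the ranks are a description. Tle5, Uqcc2 and Lonp1 did not pass the test over all 1034 sites (adjusted p = 1 for each in edgeR).

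The sequence after the cytosine was not used to choose sites. CNG, a G 2 bases after the cytosine on the transcript strand, was found at 38 of the 57 shared sites that met the criteria in liver (66.7%) and at 114 of the 179 in heart (63.7%), against 35.4% of all 3098 shared sites. CNGG, which is contained in CNG, was found at 26 of the 57 (45.6%) against 12.9% of shared sites, and CNGGG at 11 (19.3%) against 3.87%. Sites with nearly all unconverted reads in 1 liver library did not share this: 85 of 255 had CNG (33.3%) and 2 had CNGGG. By region, 32 of the 57 lay in coding sequence (56.1%) and 23 in 3′ UTRs (40.4%), beside 66.1% and 29.9% of shared sites.

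CTCCA starting at the cytosine was present at 38 shared sites (1.23%), and 24 of the 38 were at 0 in both liver libraries. H2-Aa, the alpha chain of an MHC class II molecule, was the only one that met the criteria in liver. It stood at 0.0587 and 0.107 in liver (818 and 121 reads), with 0, 0.0110 and 0.0748 as the lowest, median and highest of the other libraries, so that it lay above small intestine, spleen and kidney and overlapped heart (adjusted p = 1 in edgeR). Selenok, a selenoprotein of the endoplasmic reticulum, had unconverted reads in both liver libraries at its CTCCA site (0.0177 and 0.0733) without meeting them. H2-Aa is made by antigen-presenting cells. The lymphoid and myeloid markers held 0.245% and 0.0107% of reads in the liver libraries, as given above. H2-Aa is itself among them, with 0.0527% and 0.00532%. The part of such cells in this level was not tested. In liver of Nsun6 KO mice 0 of 135 reads were unconverted at this site (upper limit 0.0222).

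Another 5 CTCCA sites, with enough reads in some of the other libraries only, also met the criteria in WT liver. Serpina1c, an alpha-1-antitrypsin gene, was at 0.104 and 0.105 (12685 and 17771 reads), and 0 of 20452 reads were unconverted in KO liver (up to 0.000147). Csf1r, the receptor of the main macrophage growth factor, was at 0.332 and 0.324. The macrophage marker share was 0.119% and 0.00761% in the same libraries. Csf1r is itself among those markers, with 0.0495% and 0.00330%. The part of macrophages in its level was not tested. Pcsk6, a proprotein convertase, was at 0.216 and 0.0600, Hgsnat, a lysosomal acetyltransferase, at 0.132 and 0.220, and Tpst2, a tyrosine sulfotransferase of the Golgi, at 0.103 and 0.130. In KO liver 0 reads were unconverted of 81 for Csf1r, 97 for Pcsk6, 61 for Hgsnat and 35 for Tpst2, which allows levels of up to 0.0370, 0.0309, 0.0492 and 0.0857. Serpina1c has near-identical paralogs, between which reads could be split.

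The liver-only sites were under 20 reads in each other library by the rule, although a gene could also hold a shared site, as Fasn did. They lay in 104 named genes, and 63 of the 119 had no listed reads in any of the 8 other libraries. By the gene lists, 10 sites were in 8 genes of coagulation and complement (Plg, F2, F5, Klkb1, C8a, C8b, C8g and C4a), 4 in 3 genes of drug metabolism (Cyp2c37, Cyp2c70 and Ces1c), 3 each in amino acid breakdown (Hal, Bhmt and Haao) and in bile acid and lipid metabolism (2 in Fasn, and Cyp7a1, the rate-limiting enzyme of bile acid synthesis), and 2 in inter-alpha-trypsin inhibitor heavy chains (Itih2 and Itih3). Others were in Hgfac (3 sites), Foxa2, Prox1 and the clotting protein Proz. Ribosomal, translation factor, respiratory chain and secretory pathway genes had 0 liver-only sites. The rule leaves out any site with 20 reads in another tissue, so these list counts follow in part from the rule. Coverage was at least 20 by the rule, with medians of 40 and 70 reads, so that most levels rest on few reads.

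Of the 119, 8 met the criteria in liver, and 23 had no unconverted read in either library. At 87 sites the unconverted reads were in 1 liver library (55 in replicate 1, 32 in replicate 2), and at 9 in both. A level of at least 0.1 with 3 unconverted reads was reached in replicate 1 alone at 57 sites, in replicate 2 alone at 33 and in both at 3 (Itih2, Vnn3 and Serpina3k). The site of Prox1, a transcription factor of liver development, for example, had 0 of 39 reads unconverted in replicate 1 (exact 95% interval 0 to 0.0903) and 10 of 24 in replicate 2 (0.221 to 0.634). The Cyp7a1 site had 10 of 28 unconverted in replicate 1 (0.186 to 0.559) and 0 of 236 in replicate 2 (0 to 0.0155). These intervals do not overlap, and the sites therefore give no level that both libraries share.

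Serpina3k, a plasma protease inhibitor, gave the most even and most deeply covered site. Its level was 0.179 and 0.180 on 20668 and 4912 reads, a mean of 0.180 ± 0.00123 (SD, n = 2). In KO liver it was 0.304 and 0.315 on 15407 and 13561 reads; the genotypes did not overlap, and the difference was not tested here. Ces1c, a plasma carboxylesterase, was at 0.147 and 0.0721 (3830 and 11672 reads), and at 0.140 and 0.150 in KO liver. Vnn3, a vanin (pantetheinase), was at 0.249 and 0.256 on 173 and 172 reads, and at 0.130 and 0.164 in KO liver.

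Itih2, which becomes linked to hyaluronan, had the highest mean, 0.356 ± 0.0959 (SD, n = 2), from 14 of 33 reads in replicate 1 (interval 0.255 to 0.608) and 155 of 537 in replicate 2 (0.251 to 0.329). Its KO libraries were at 0.345 and 0.256. Pzp, a broad protease trap of plasma, was at 0.114 and 0.0789 (772 and 1014 reads), and Plg, the precursor of plasmin, at 0.130 and 0.0342 (323 and 818 reads). Ttc39c was at 0.0857 and 0.347, and Cyp3a41a, a cytochrome P450, at 0.250 and 0.0214 on 24 and 702 reads. Of the 6 liver-only genes with the most liver reads, F2 (prothrombin) was at 0.0408 and 0.0579, and Hgfac, a protease that activates hepatocyte growth factor, had 0 of 171 and 0 of 2137 reads unconverted at its deepest site.

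All 8 sites kept unconverted reads in KO liver, and none had CTCCA. CNG was present at 7 of the 8 (87.5%), against 36.1% of the 119 liver-only sites, and all but the Cyp3a41a site lay in coding sequence. The exception to CNG was Plg, whose sequence is printed above. The single liver-only CTCCA site, in Mug2, had 7 of 32 unconverted reads in replicate 1, 0 of 223 in replicate 2 and 0 of 60 in KO liver. Serpina3k, Ces1c, Cyp3a41a, C4a and Mug2 each have close paralogs in the mouse genome, and how reads shared between copies were counted is not given in the sources used here.

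**Figure D4:**
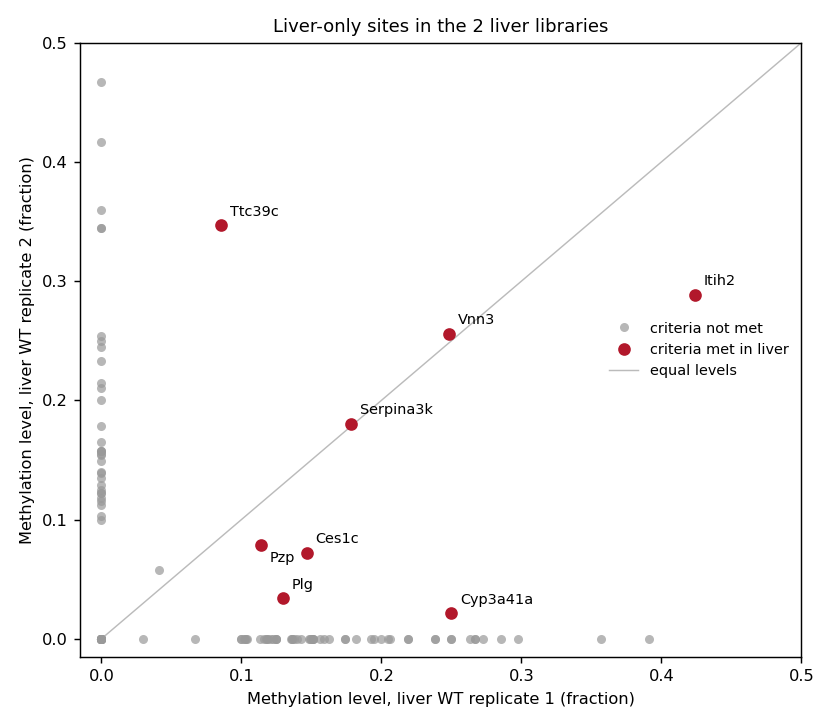
Methylation level (fraction) of the 119 liver-only sites in liver replicate 1 (x axis) and replicate 2 (y axis), with the 8 sites that met the criteria in colour and named, and a line of equal levels. Serpina3k and Vnn3 lie on the line, and the sites with unconverted reads in 1 library lie along the axes.

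Coverage at the best-covered shared site of each gene was compared as a measure of transcript abundance in these libraries. In bulk tissue, fewer cells of a type and less RNA per cell cannot be told apart. Of 2023 genes, 154 were higher in liver than the mean of the other tissues (7.61%) and 17 lower (0.84%) in edgeR with TMM scaling. The split depended on the scaling: 90.1% of calls were higher with TMM, 63.4% with DESeq2's size factors (173 higher, 100 lower) and 61.5% without TMM (59 higher, 37 lower), which moved the median of all genes by -0.55 on the log2 scale. All coverage values below are TMM-scaled CPM at 1 site, and compare libraries, not genes.

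Ahcy had the smallest p on the higher side. It was at 3412 and 8779 in liver and at 22.3 to 362 elsewhere, a log2 fold change of 6.05. Asl, which forms arginine in the urea cycle, was at 1792 and 7165 against 20.8 to 783, and Fasn, fatty acid synthase, at 305 and 403 against 11.6 to 29.1. Por, the electron donor of microsomal P450 enzymes, was at 3143 and 1157 against 16.0 to 250. Shmt1, a cytosolic enzyme of serine and glycine, was at 362 and 1126 against 11.2 to 230.0, and Gm4737 at 999.8 and 2129 against 23.9 to 254. In all 6 both liver libraries lay above all 8 others (log2 fold changes 4.39 to 6.05, largest adjusted p 1.40e-07 in edgeR). Gm4737 is a close copy of Ahcy, so that reads could be split between them.

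By list, with the median log2 fold change of the whole list, 4 of 9 measured genes of bile acid, cholesterol and lipid metabolism were higher (Fasn, Cyp27a1, Phyh and Hmgcs1, median 1.17). Of drug metabolism 3 of 4 were higher (Por, Gstz1 and Aldh2, median 3.71), of amino acid breakdown both (Asl and Got1), of glucose metabolism 1 of 2 (Khk, ketohexokinase) and of the transcription factors 2 of 3 (Cebpb and Nr1h3, median 1.59). The secretory pathway had 2 of 18 higher, the chaperone Calr and the lectin Lman2 (median 0.60), and the translation factors 1 of 20, Eif5a (median -0.12). Calr rested on liver replicate 1, at 1892 against 32.2 in replicate 2. Of 17 respiratory chain genes 1 was lower, Ndufa12 (median -0.30). Of 10 ribosomal protein genes edgeR called 0 in either direction (2 lower at an unadjusted p under 0.05, median -0.85). Over all 2023 genes 7.61% were called higher, with a median of -0.0027.

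The lower calls named here were smaller, but the rule of at least 20 reads in each liver library limits how low liver could fall. Csrp1, a LIM-domain protein of muscle, was at 25.3 and 33.3 in liver and at 50.8 to 818 elsewhere (log2 fold change -2.68, adjusted p = 0.0131 in edgeR). Sms, spermine synthase, was at 26.9 and 27.2 against 27.2 to 339, level with small intestine replicate 1. Rgs2, a regulator of G protein signalling, was at 17.1 and 16.6 against 38.8 to 334, and Akr1b3, aldose reductase, at 39.1 and 31.1 against 42.8 to 676. Ndufa12 and Gm21970 completed the 6 with the smallest p. Without either liver library none of these 6 passed, and 3 or 2 genes remained lower in all.

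Methylation and coverage were not tested against each other. Ahcy, with the largest coverage excess in liver, held 0 unconverted reads of 20007 at its site, and the 3 Fasn sites (1 shared, 2 liver-only) and the shared Cebpb site had 0 unconverted reads in both liver libraries. Gsn and Atp2a2 were lower in coverage in liver than in heart (61.2 and 22.2 against up to 4147 for Gsn, and 23.6 and 21.1 against up to 3820 for Atp2a2), so that their liver levels came from fewer reads than those of heart. Other tissues were not all above liver: the Gsn site had 75 and 40 reads in liver, 53 in spleen replicate 1 and 64 in kidney replicate 2.

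**Figure D5:**
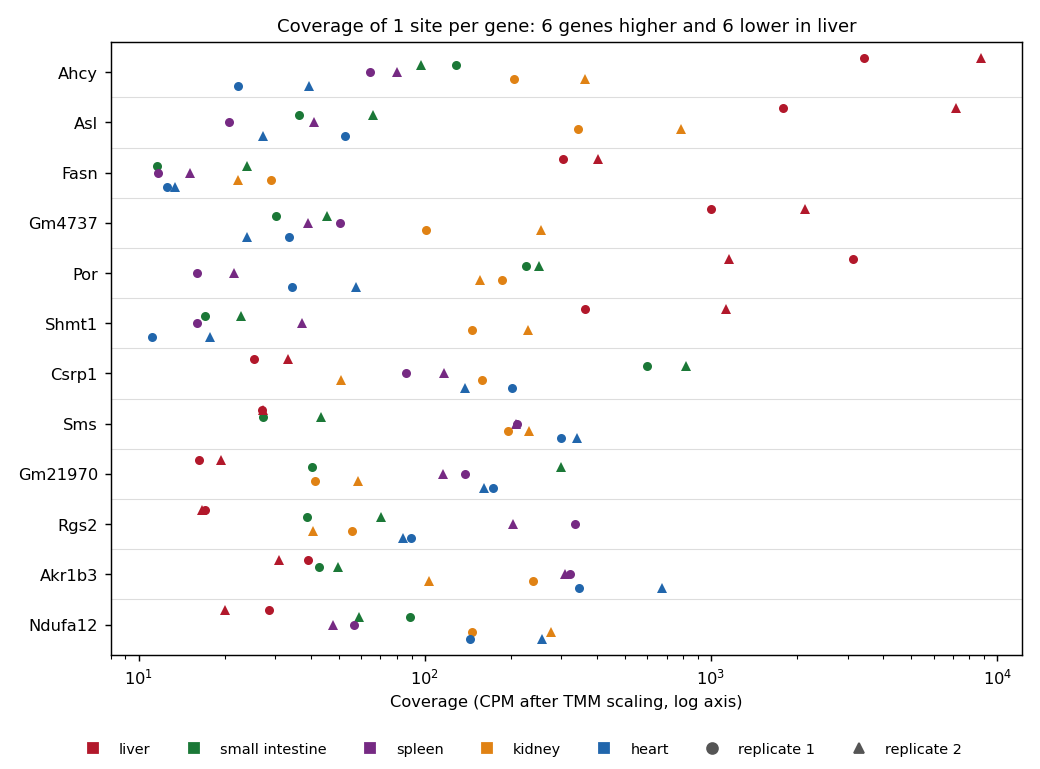
Coverage of 1 shared site per gene (x axis, CPM after TMM scaling, log axis) for the 6 genes with the smallest p that were higher in liver and the 6 that were lower. Each point is 1 library. The liver points lie right of all others in the 6 upper genes and at or near the left in the 6 lower ones.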

How the data were processed

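Poly(A) RNA was bisulfite-converted with a commercial kit, reverse transcribed and sequenced as stranded libraries. The deposited table gives, for each cytosine and library, the count of covering reads and the count of unconverted reads, mapped by the authors to mm10 per the submitters' processing notes; which aligner was used is not given in the sources used here. Sites were listed by the authors when they passed in at least 1 of the 20 libraries. The lowest coverage listed was 10 reads, so a missing value means fewer. The deposited fraction of unconverted reads per gene was read as a check only. The deposited p-value and signal columns, and 104 per-sample columns of other libraries or measures, were not used.

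Levels were unconverted counts divided by coverage. Sites were assigned to exons with GENCODE annotation (10233 of 10243 gene identifiers matched), and mm10 had a C at each of the 32365 sites for which sequence was read. The count pair of each site (unconverted, converted) went into edgeR 4.0.16 in R 4.3.3, with an intercept per library and a methylation term per tissue, two-sided, Benjamini-Hochberg adjusted over the 1034 sites tested. Coverage of the best-covered site per gene was tested with TMM scaling. limma 3.58.1 (offset 0.5) and DESeq2 1.42.0 were alternatives, as were other coverage minimums, no filter on unconverted reads, 2 groups, a replicate block and leaving out each library. The scripts were tested on simulated data, in which most of the changed sites were not recovered by the site fit with 2 libraries per tissue, so that few calls do not show that few sites differ. Intervals are exact Clopper-Pearson at 95%, and 0 unconverted reads are given an upper limit of 3 reads of the total. Tables used Python 3.11.15, pandas 2.3.3, numpy 2.4.6 and pysam 0.24.0.

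Members, gene lists and markers were chosen with earlier results of these data known. The sites named were up to 10 per direction by adjusted p, or the 5 with the smallest p where fewer than 5 passed. Also named were the 6 genes each way for coverage, liver-only sites that met the criteria, the 6 liver-only genes with most reads, CTCCA sites that met the criteria in liver, up to 8 sites that met them in all 5 tissues and up to 4 members of each list. Other sites, such as those above or below all other libraries, were named after their values were seen. Some items of the table are not reported here.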

Additional observations from a re-analysis of the deposited data

How the results depend on the processing

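Among the settings run, no result changed direction. For the sites and genes named by rule, 327 values kept their side of the threshold, 30 lost it and 10 gained it. Of the shared sites in this count only the first Rps14 site passed in the main setting, so the 327 include values that passed in neither setting. The counts of sites were less stable. In the main setting 1 site was lower and 0 higher in liver, with 1 differing from small intestine, 3 from spleen, 0 from kidney and 12 from heart. limma gave 2 lower and 3 higher, 0 from small intestine and 5 from heart. DESeq2 gave 0 lower, and 0 from small intestine, spleen and heart. With the 8 other libraries as 1 group, 0 were lower. A minimum of 50 reads gave 2 from small intestine. A minimum of 10 reads gave 0 from small intestine and 1 from spleen, and no filter on unconverted reads gave 0 from both.

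Over the 208 sites that met the criteria in at least 1 tissue, 5 were higher, 4 differed from small intestine, 6 from spleen and 54 from heart. Sites entered this set through the tissue in which they were high, 179 of the 208 in heart, so these counts are no support. These settings on the 208 sites without a liver library or with limma were chosen after seeing the data. Without liver replicate 1 there were 6 lower and 8 higher, with 14 from small intestine, 22 from spleen, 3 from kidney and 70 from heart. Without liver replicate 2 there were 2 lower and 4 higher, with 5, 10, 1 and 43 from these tissues. With limma there were 0 lower and 2 higher, 0 from small intestine and 73 from heart.

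With 1 library left out, 0 to 1 sites were lower and 0 to 3 higher (3 without either liver library, 1 without spleen replicate 1). Sites differing from small intestine numbered 0 to 2, from spleen 0 to 7, from kidney 0 to 0 and from heart 7 to 20 (7 without heart replicate 1, 20 without spleen replicate 2). The calls against spleen fell to 0 without spleen replicate 2 and without liver replicate 2, and were 7 without spleen replicate 1 and 5 without liver replicate 1. With 1 liver library the rule gave 157 to 558 liver-only sites.

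Coverage calls numbered 17 lower and 154 higher. DESeq2 gave 100 lower, no TMM scaling 37 lower and 59 higher, 2 groups 0 lower and 10 higher, and a minimum of 50 reads 1 lower and 28 higher (546 genes). With 1 library left out they ran from 2 to 26 lower and from 96 to 178 higher. Higher calls fell to 96 without liver replicate 2 and 97 without heart replicate 2. Lower calls were 3 and 2 without liver replicate 1 and 2, 7 and 9 without small intestine replicate 1 and 2, 8 and 4 without heart replicate 1 and 2, 11 without kidney replicate 2 and 26 without spleen replicate 2. Liver-only sites numbered 348 under a looser rule (below 20 reads in at least 1 library of each other tissue) and 32 with at least 50 reads. The causes of these changes were not tested, beyond fewer sites or libraries in a setting.

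The levels cannot tell whether same-numbered libraries share an animal, because many tested sites held nearly all their unconverted reads in 1 library. Deviations of same-numbered libraries correlated between -0.15 and 0.13 over the 10 tissue pairs, with 2 above 0.1. A replicate block gave 2 sites from small intestine, 4 from spleen and 16 from heart, left 1 lower and 0 higher, and gave 10 genes lower and 119 higher in coverage.

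With 2 libraries per tissue and about 55 to 89 reads at a typical site in liver, small differences in level could not be shown. The separate animals behind the libraries are not stated, and sites enter the table through a high value in some library.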
